A study of Homo sapiens with 6 samples.

Results

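The ABC transporter genes encode the ATP-binding cassette family, and their members were taken as the regions whose assigned gene symbol is ABC, a letter from A to G and a number. RefSeq lists 45 protein coding genes of that form, and 35 of them had at least 1 region in the 4 deposited lists, where 16428 genes had a region. They held 1108 of the 271336 regions of the 4 lists. The data are ChIP-seq region lists from HepG2, a human hepatoma cell line, and compare WT cells (SHP-1-WT, a CRISPR control) with cells in which CRISPR had knocked out SHP-1, a tyrosine phosphatase encoded by PTPN6 (SHP-1-KO). All cells were untreated. RPB1, the largest subunit of RNA polymerase II, was precipitated with an antibody to its C-terminal domain, and RPB1 phosphorylated at Ser2 of that domain (pSer2) with another, with 1 library per antibody and cell type. The KO cells are a clonal line, so the clone and the genotype cannot be told apart. Each antibody was used once per cell type, so none of the differences was checked in a replicate, no test was possible, and every value describes these 4 libraries.

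ABC proteins bind and hydrolyze ATP, and most use it to move lipids, bile salts, conjugates, drugs or peptides across a membrane. In hepatocytes, ABC transporters at the canalicular membrane secrete the components of bile, and others at the basolateral membrane return conjugates to blood or load cholesterol onto lipoproteins. RPB1 gathers at the start of active genes, whereas pSer2 is carried by elongating polymerase and is usually found further along the gene and past its end. The level given here is the fold enrichment over the input DNA of the same cells at the summit of a region. A gene's level is that of its highest region in a class, promoter (within 1 kb of a transcript start) or body (exons, introns and untranslated regions beyond it), as the authors annotated it.

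The cells carried the promoter occupancy of liver cells. Of 10 hepatocyte and HepG2 markers, 9 had promoter RPB1 in both cell types, and APOA1 had none. Of 8 markers of other cell types, 2 had promoter RPB1 in WT and 1 in KO, which was PECAM1 with levels of 6.35 and 4.32. Body pSer2 separated the lists less, with 4 of the 10 in WT and 5 in KO. Of the 8 others, PECAM1 alone had it, with levels of 9.75 and 7.67. At the start of PTPN6 itself the RPB1 level was 24.0 in WT and 17.2 in KO, which does not check the knockout since the assay does not measure the SHP-1 protein. The lists held 46045 RPB1 regions in WT and 41605 in KO, and 102674 and 81012 pSer2 regions. The lists give no read counts, so the depth behind each level is unknown.

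Promoter sequences are shown first for the genes that the comparison turns on, as the stretch before the RefSeq start (GRCh38.p14), without any bases that GENCODE places in an exon. ABCA1 and ABCC5 had the lowest KO/WT ratios of promoter RPB1, ABCC2 was higher in KO at its own start, ABCG5 and ABCG8 are read in opposite directions with 131 bases between their starts, and ABCB11 had no region in any list. Capitals mark matches on either strand to 5 motifs, which are TATAAA (the TATA box), CCAAT (bound by NF-Y), GGGCGG (the GC box), CACGTG (the E-box) and TTCNNNGAA (the core of the STAT site). The stretches lie at chr9:104928156-104928405 (ABCA1, reverse strand), chr3:184017940-184018134 (ABCC5, reverse strand), chr10:99782390-99782639 (ABCC2, forward strand), chr2:43838866-43838970 (between ABCG5 and ABCG8, forward strand) and chr2:169031325-169031574 (ABCB11, reverse strand).
ABCA1: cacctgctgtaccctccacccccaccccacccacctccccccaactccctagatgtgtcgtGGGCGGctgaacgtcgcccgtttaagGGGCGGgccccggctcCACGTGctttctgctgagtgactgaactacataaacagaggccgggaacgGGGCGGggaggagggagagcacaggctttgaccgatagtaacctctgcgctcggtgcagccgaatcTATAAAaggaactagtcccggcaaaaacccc
ABCC5: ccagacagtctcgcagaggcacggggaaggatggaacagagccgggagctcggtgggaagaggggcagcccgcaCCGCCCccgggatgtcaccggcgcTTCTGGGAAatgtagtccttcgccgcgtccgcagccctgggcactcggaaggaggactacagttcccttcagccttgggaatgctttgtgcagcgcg
ABCC2: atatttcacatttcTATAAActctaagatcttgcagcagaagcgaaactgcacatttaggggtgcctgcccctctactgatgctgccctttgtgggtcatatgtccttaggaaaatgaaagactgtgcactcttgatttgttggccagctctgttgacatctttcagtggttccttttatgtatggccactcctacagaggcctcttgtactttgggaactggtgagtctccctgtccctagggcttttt
ABCG5 to ABCG8: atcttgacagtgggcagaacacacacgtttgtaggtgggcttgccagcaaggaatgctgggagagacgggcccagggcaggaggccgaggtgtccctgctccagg
ABCB11: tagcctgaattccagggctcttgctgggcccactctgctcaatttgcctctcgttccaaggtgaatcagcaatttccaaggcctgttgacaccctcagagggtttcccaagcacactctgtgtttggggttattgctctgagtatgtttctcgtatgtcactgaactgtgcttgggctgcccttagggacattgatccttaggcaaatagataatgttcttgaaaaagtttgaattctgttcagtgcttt
In ABCA1, a TATAAA began 31 bases before the start and lay below 3 copies of GGGCGG and 1 CACGTG. The ABCC5 stretch held GGGCGG on its other strand and TTCTGGGAA, a match to TTCNNNGAA that began 152 bases before the start. A TATAAA that began 28 bases before the start of ABCC5 lay in bases that are not shown, since GENCODE places them in an exon. In ABCC2 the only match was a TATAAA that began 236 bases before the start, and the ABCB11 stretch and the stretch between ABCG5 and ABCG8 held no match. The GC content was 61.6% in the ABCA1 stretch, 45.6% in that of ABCC2 and 46.4% in that of ABCB11.

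RefSeq windows of 300 bases, 250 before and 50 after the start, were found for 35 of the 45 members. GGGCGG was found in the windows of 21 of these 35 genes (60%), compared with 48.3% of all 27305 genes in the table. CACGTG was found in 8 members (22.9%) and in 8.77% of all genes. TATAAA was also found in 8 members (22.9%) and in 13.99% of all genes, CCAAT in 11 members (31.4%) and 39.7%, and TTCNNNGAA in ABCC5 and ABCG2 (5.71%) and 9.38%. A gene was counted if any of its windows matched, and the 35 members had 53 windows, against 35116 for all 27305 genes. The per-gene shares therefore depend on the number of windows per gene. Per window, GGGCGG was nearly as frequent in members (47.17%) as in all windows (44.95%). CACGTG was found in 16.98% and 7.26% of windows, TATAAA in 15.09% and 11.53%, CCAAT in 22.64% and 34.61%, and TTCNNNGAA in 3.77% and 7.66%. All of these are matches of letters in a window and not shown to be bound. Among the members without a window in the table were ABCA4, ABCA8, ABCB4, ABCB5, ABCC1, ABCC3, ABCC8 and ABCG1.

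RPB1 was found at the promoters of most members in both cell types, and its level was mostly lower in KO. A promoter region was assigned to 29 members in WT and to 28 of those in KO. ABCC11, a transporter known for its role in earwax type, was the only member with promoter RPB1 in 1 list alone. Its regions had levels of 4.34 and 4.08 in WT and lay inside the gene, 2.21 and 11.9 kb past its outermost start. Over all 12806 genes with promoter RPB1, 7.64% had it in WT only and 4.51% in KO only, compared with 1 and 0 of the 29 members.

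Among the 28 members with promoter RPB1 in both cell types, the level was lower in KO in 23 and higher in 5. The median level was 22.1 in WT and 14.9 in KO, and the median of the log2 KO/WT ratios was -0.41. This is close to the whole lists, where the median was -0.46 over 11250 genes and 84.8% of the genes were lower, compared with 82.1% of the members. A level at least 1.5 times lower in KO was found in 12 members (42.9%), against 38.2% of all genes, and a level at least 1.5 times higher in 1 member, against 2.12% of all genes. In the other large family of transporters, the solute carriers, the median over 170 genes was -0.47 and 39.4% were at least 1.5 times lower. In 23 of the 28 members the highest regions of WT and KO overlapped, and for ABCB9, ABCC3, ABCD4 and ABCG8, among the others, the 2 values came from different places. Relative to the median of all genes, 13 members were lower and 15 higher. The difference between these medians was small beside the range within the family, for example from -1.39 for ABCA1 to 0.28 for ABCC2.

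**Figure D1:**
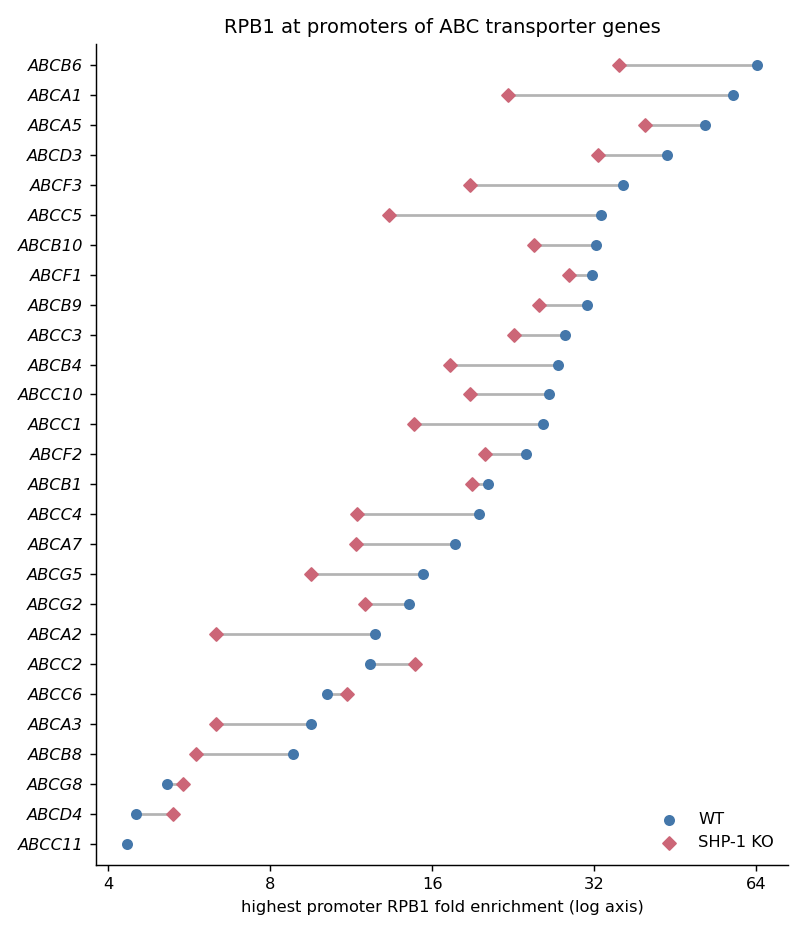
Highest promoter RPB1 fold enrichment (log axis) of ABC transporter genes with a promoter region, in WT (circles) and SHP-1 KO (diamonds), 1 library each. The KO value is lower for most genes, by the most for ABCA1 (58.0 and 22.1), and ABCC11 has a WT value only.

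Among the transporters of bile, RPB1 was present at 6 of 7 promoters in both cell types. ABCB11, the bile salt export pump, had no region in any of the 4 lists. ABCC2, which exports conjugated bilirubin, had a promoter RPB1 level of 12.3 in WT and 14.9 in KO, 1.21 times higher in KO. Both summits lay close to its only annotated start, 175 and 163 bases past it. ABCC2 was therefore one of the few members whose own start carried a higher level in KO, at percentile 93.7 of the ratios of all genes. The region itself was shorter in KO, 970 bp against 1619 bp in WT. The promoter RPB1 regions of ABCC2 together covered 2.55 kb in WT and 1.25 kb in KO.

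ABCB4, the phosphatidylcholine translocator, had a promoter RPB1 level of 27.5 in WT and 17.3 in KO, at least 1.5 times lower. ABCB1 (P-glycoprotein, a drug exporter) had 20.3 and 19.0, and ABCG2, an exporter of drugs and urate, had 14.5 and 12.0. The neighbors ABCB1 and ABCB4 lie on the same chromosome and carry related proteins, and their ratios were 0.936 and 0.629. The RPB1 regions of ABCB1, ABCB4 and ABCG2 lay 112, 4.81 and 72.6 kb past the outermost annotated start, at starts inside the gene that other transcripts use.

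ABCG5 and ABCG8 together encode the sterol exporter, and their starts share 1 RPB1 region (chr2:43837871-43839563 in WT). That region was assigned to ABCG5, with a level of 15.4 in WT and 9.54 in KO. The regions assigned to ABCG8 were weak, at 5.13 and 5.51, lay at different places in WT and KO and did not overlap. ABCG8's higher level in KO was therefore not seen at the shared start, where the level was lower in KO.

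Of the other exporters, RPB1 was at 7 of 9 promoters in WT and 6 in KO, and ABCB5 had no region at all. ABCC12 was assigned only an RPB1 region of 7.62 in WT and 5.61 in KO, upstream of the gene. ABCC5, an exporter of cyclic nucleotides, had a promoter RPB1 level of 32.9 in WT and 13.3 in KO. This was 2.48 times lower, with the summits 97 and 70 bases from the outermost start. ABCC1, a glutathione conjugate exporter, had 25.7 and 14.8, and ABCC4, which moves bile acids and cyclic nucleotides, had 19.5 and 11.6, so these 3 members of the C subfamily were all more than 1.5 times lower. ABCC3, the basolateral exporter of conjugates, had 28.2 and 22.7 from regions that did not overlap, since the WT value lay at its start and the KO value 49.95 kb past it. At its start ABCC3 had 28.2 and 21.4, and at the inner promoter 23.6 and 22.7. ABCC10 had 26.3 and 18.8. ABCC6, expressed mainly in liver and mutated in pseudoxanthoma elasticum, had 10.2 and 11.1 and was the other C subfamily member with a higher level in KO. The 5′ part of ABCC6 has near-identical pseudogene copies, and how reads with several matches were treated is not given in the sources used here.

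Among the 14 lipid transporters, 5 had promoter RPB1, and all 5 were lower in KO, as were 84.8% of all genes. ABCA1, which loads cholesterol and phospholipid onto apolipoprotein A-I, had the largest difference of any member. Its single promoter region (chr9:104926230-104928576 in WT) had a level of 58.0 in WT and 22.1 in KO, 2.62 times lower, with summits 37 and 34 bases past the start. Of the ratios of all genes, 2.95% were as low or lower. ABCA5, a lysosomal lipid transporter, had 51.4 and 39.9, and ABCA2, which is best known from brain, had 12.5 and 6.34, 1.98 times lower. ABCA7 had 17.6 and 11.5, and ABCA3, the lipid transporter of surfactant, 9.51 and 6.34. ABCA4, ABCA8 and ABCA13 had regions outside their genes only, ABCG1 had a single WT RPB1 region in an intron with a level of 5.67, and ABCA6, ABCA9, ABCA10, ABCA12 and ABCG4 had none. ABCC8 and ABCC9, which regulate potassium channels, had no region either.

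Of the mitochondrial members, ABCB6, ABCB8 and ABCB10 had promoter RPB1 and a lower level in KO. ABCB6, a porphyrin transporter, had the highest promoter level of the family, 64.3 in WT and 35.7 in KO. In WT the summit of that region lay 12.2 kb past the start of ABCB6, beyond the end of the gene, which is 9.22 kb long. The region itself (chr2:219204702-219211838 in WT) also covered the end of ABCB6. At the start of ABCB6 itself the level was 44.6 in WT and 31.2 in KO, again lower. ABCB10 had 32.2 and 24.7, and ABCB8 8.82 and 5.83.

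The transporters of peroxisomes and lysosomes depended most on which region was assigned to the gene. ABCD3, which imports branched fatty acids and bile acid precursors into peroxisomes, had 43.7 in WT and 32.5 in KO at its own start. ABCD4, a lysosomal cobalamin transporter, had 4.51 and 5.28 by assignment, from regions that did not overlap. The region at its start was assigned to VRTN and had 49.4 in WT and 31.4 in KO, so the direction was the opposite at the start itself. ABCB9, a lysosomal peptide transporter, had 31.0 and 25.3 by assignment, but these came from different promoters, 15.2 and 0.875 kb past the outermost start. At the place of the WT value the KO level was 6.82. Near the outermost start, WT had a region of 45.2 that was assigned to ARL6IP4 and overlapped the KO region of 25.3, and at a promoter between these places ABCB9 had 25.6 and 17.2, so all 3 places were lower in KO. ABCD2 had no region.

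The soluble members lack membrane domains and act on ribosomes and translation. ABCF1 had 31.7 in WT and 28.7 in KO, ABCF2 24.0 and 20.1, and ABCF3 36.2 and 18.8. The level of ABCF3 was thus 1.93 times lower, and only ABCA1, ABCC5 and ABCA2 had lower ratios at their own starts. ABCE1, the ribosome recycling factor, was assigned no promoter RPB1. The region at its start was assigned to ANAPC10, which is read in the opposite direction, with 23.1 in WT and 27.8 in KO.

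When regions were matched instead to any GENCODE start of a protein coding transcript, 30 members had RPB1 in WT and 29 in KO. Of those 29 members, 26 were lower in KO, and ABCC2, ABCC6 and ABCE1 were higher. The median log2 ratio was -0.52, against -0.48 over 11721 genes measured in the same way. At least 1.5 times lower were 14 members (48.3%, and 39.3% of all genes), and 0 members were at least 1.5 times higher (1.14% of all genes). The shared region of ABCG5 and ABCG8 (15.4 and 9.54) was counted for both genes, among the 29, the 26 and the 14. The strongest region at a member's start was assigned to another gene for 5 members in WT and 4 in KO.

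**Figure D2:**
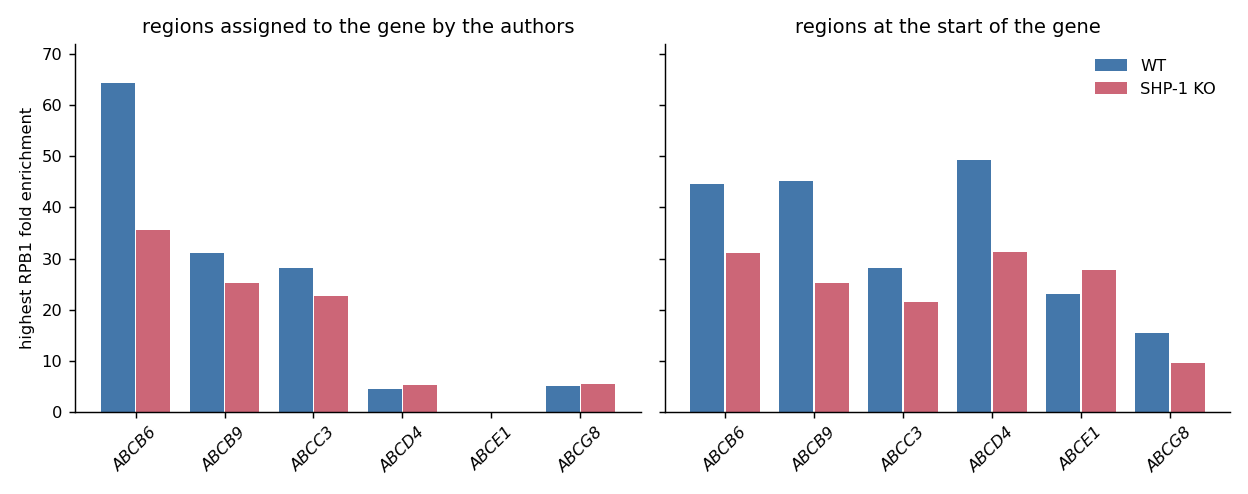
Highest RPB1 fold enrichment of 6 members in WT and SHP-1 KO, from the promoter regions assigned to the gene (left) and from the regions within 1 kb of a transcript start of the gene (right). ABCD4 is higher in KO on the left (4.51 and 5.28) and lower on the right (49.4 and 31.4), and ABCE1 has no assigned promoter region and appears on the right only.

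In contrast to promoter RPB1, pSer2 levels in gene bodies were close to equal in WT and KO, while the regions covered less of the genes in KO. Body pSer2 was assigned to 18 members in WT and 17 in KO, with 15 in both. ABCB1, ABCB9 and ABCC10 had it in WT only (15.0% of the 20 members with body pSer2, against 19.4% of 10095 genes), and ABCF2 and ABCF3 in KO only (10.0%, against 6.74%). All 5 of these had levels of 4.14 or less. All 5 also carried pSer2 within the gene in both cell types, counting regions of any class and assigned to any gene. None of the 5 genes was therefore without pSer2 in the other list. The KO body region of ABCF3 lay outside its gene. Within ABCB1, ABCB9 and ABCC10, pSer2 covered 1.04, 6.01 and 7.69 kb in WT and 0.767, 4.41 and 6.15 kb in KO. For ABCB9 this included regions assigned to ARL6IP4, at chr12:122977021-122980879 in WT and chr12:122978166-122980947 in KO. The level of regions classed as promoter was 4.21 and 6.96 for ABCB1, 6.86 and 6.07 for ABCB9 and 4.06 and 6.11 for ABCC10. Of the 278 body regions of members in WT, 253 overlapped the gene they were assigned to, and of the 254 in KO, 239 did.

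Over the 15 members with both values, the body pSer2 level was lower in KO in 9 and higher in 6, with a median log2 KO/WT ratio of -0.03 (all genes -0.07). A level at least 1.5 times lower was found in 1 member, ABCC2 (6.67%), against 9.96% of all genes, and at least 1.5 times higher in 2 members, ABCA7 and ABCF1 (13.3%), against 6.01%. The covered length was shorter in KO in 13 of 15 members, compared with 5134 of all 7453 genes with both values. It was at least 1.5 times shorter in 7 members (46.7%, against 37.1% of all genes) and longer in 1 (6.67%, against 11.9%). Summed over the members, body pSer2 regions covered 216 kb in WT and 161 kb in KO, a ratio of 0.743, with mean lengths of 777 and 632 bp per region. Over all genes the ratio was 0.812.

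**Figure D3:**
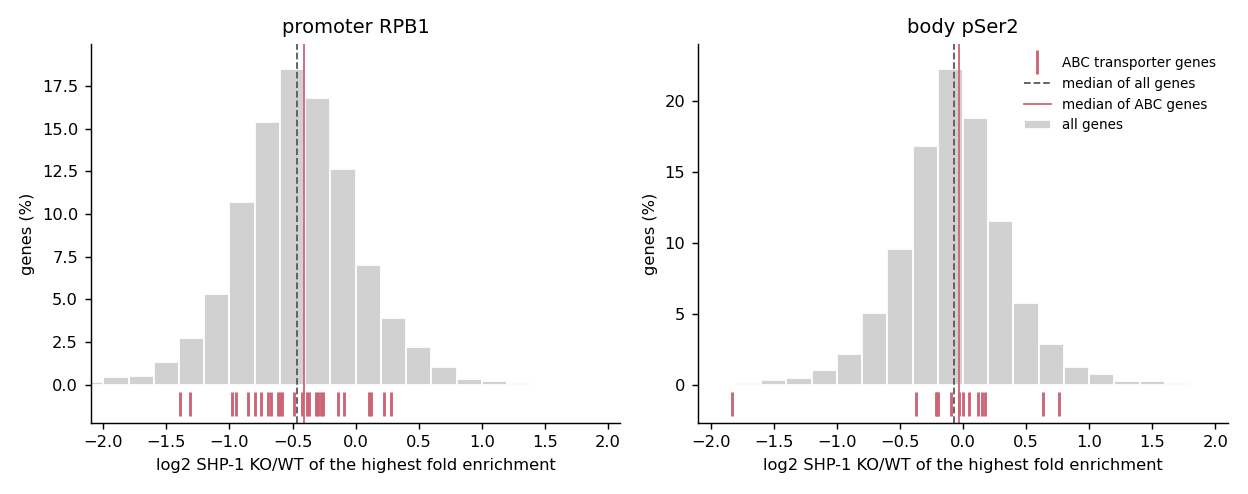
Distribution of the log2 SHP-1 KO/WT ratio of the highest fold enrichment over all genes (gray bars, % of genes) for promoter RPB1 (left) and body pSer2 (right), with ABC transporter genes as red ticks and the medians as lines. The medians of the ABC genes (-0.41 and -0.03) lie next to those of all genes (-0.46 and -0.07).

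ABCA1 had the most pSer2 regions of any member and the widest gap between WT and KO in the share of the gene they covered. They numbered 107 in WT and 91 in KO and covered 70.2 and 40.6 kb of the gene body, although the highest level was 7.11 and 6.16. All regions included, pSer2 covered 59.8% of this 147 kb gene in WT and 33.7% in KO. Of all genes with pSer2 in both lists, 25.01% had a ratio of covered length as low or lower. With the gene divided into 10 equal bins from its start, coverage of ABCA1 was lower in KO in each bin, from 27.2% and 2.31% in bin 2 to 89.8% and 64.5% in bin 8, where it was highest in both.

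ABCC2 had the highest body pSer2 level of the family, 31.8 in WT, and 8.96 in KO. The WT value came from a region of 8737 bp (chr10:99847861-99856597) with its summit 2365 bases past the annotated end of the gene. In KO a region with its summit 8 bases from that position had a level of 12.5 but was classed as intergenic, so at the same place the levels were 31.8 and 12.5. The covered length differed less, with 9 regions over 47.1 kb in WT and 28 regions over 41.8 kb in KO. Of the whole gene, 82.1% was covered in WT and 67.8% in KO, with the widest gap in the bin next to the start, 89.7% and 41.6%. RPB1 in the body of ABCC2 was lower too, with 40 regions and a highest level of 11.5 in WT and 24 regions and 6.74 in KO. Its promoter RPB1 level was instead 1.21 times higher in KO, over a shorter region.

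ABCC6 and ABCC3 were the other exporters with wide pSer2 coverage. For ABCC6, the highest body level was 17.9 in WT and 15.6 in KO, and 56.9% and 42.0% of the gene was covered. It had 25 body RPB1 regions in WT and 9 in KO. ABCC3 had 8.23 and 8.51, 55.4% and 49.8% of the gene covered, and 20 and 19 body RPB1 regions, so its values differed less between the cell types than those of ABCC6. In ABCC6 the bin next to the start lies in the part with pseudogene copies and carried no pSer2 in either cell type, and bin 9 was covered most in WT (98.0%, and 76.5% in KO).

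**Figure D4:**
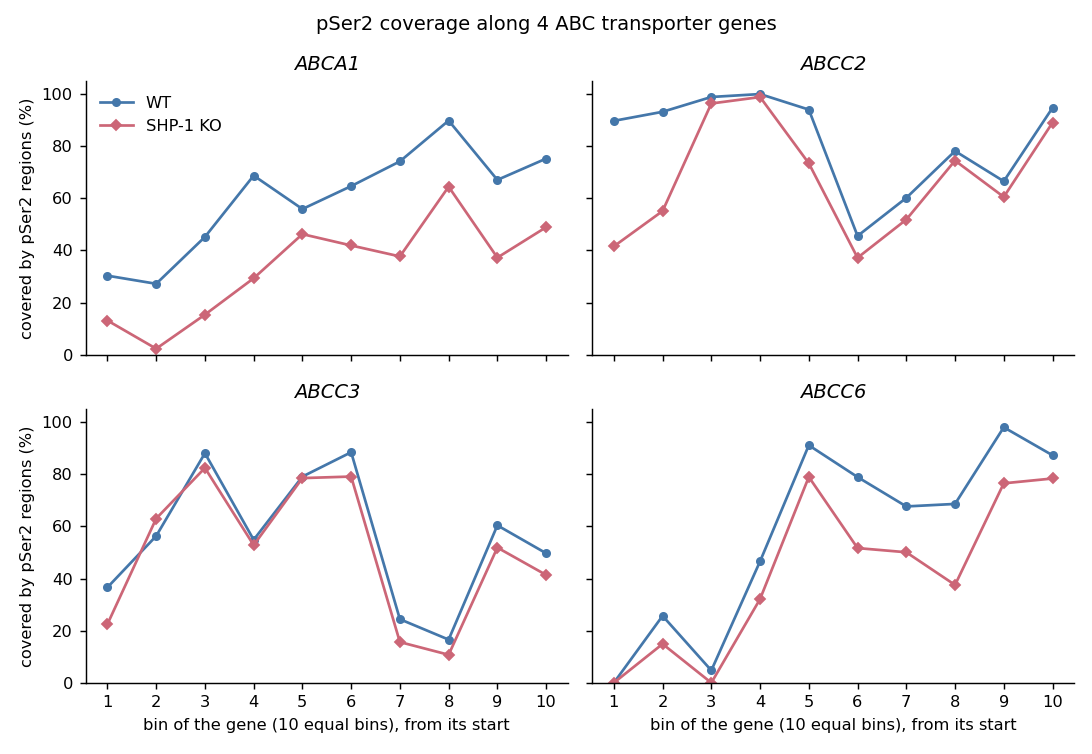
Share covered by pSer2 regions (%) of each of 10 equal bins of the gene, from the start (1) to the end (10), for ABCA1, ABCC2, ABCC3 and ABCC6 in WT (circles) and SHP-1 KO (diamonds). KO lies below WT in every bin of ABCA1 and ABCC2, and above it only in bin 2 of ABCC3.

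In the bile list, ABCB4 was assigned a body pSer2 level of 5.31 in WT and 5.20 in KO over 3.85 and 2.30 kb. Of its 8 body regions in WT 3 overlapped ABCB4, and of the 7 in KO 4 did. Within the gene, pSer2 of any class covered 1.94 kb in WT and 1.05 kb in KO. ABCB1 had body regions, of 3.44, in WT only, and ABCG2 had no pSer2 region in its gene. ABCG8 was assigned body regions of 5.55 and 4.28 over 6.14 and 1.80 kb. Of the 15 in WT only 2 overlapped ABCG8, and of the 6 in KO 0 did. Within ABCG5, which the GENCODE gene of ABCG8 overlaps on the opposite strand, pSer2 covered 29.8% in WT and 11.8% in KO. ChIP reads carry no strand, so the signal of the overlapping pair cannot be told apart.

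ABCD3 and ABCB8 had shorter pSer2 coverage in KO. ABCD3 had 31 body regions over 10.5 kb in WT and 17 over 4.99 kb in KO, with levels of 4.32 and 4.79. ABCB8 had 3.56 and 3.86 over 0.977 and 0.372 kb. The level and the covered length thus pointed in opposite directions for ABCD3 and ABCB8. ABCB10 had 5.22 and 4.49, but its WT region lay outside the gene. Within ABCB10, pSer2 covered 0 kb in WT and 0.715 kb in KO.

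In ABCE1, coverage was longer in KO. ABCE1 was assigned 10 body pSer2 regions over 7.66 kb in WT and 18 over 10.5 kb in KO, with levels of 8.64 and 9.74. Of these, 6 in WT and 17 in KO overlapped the gene. Coverage of the gene was 16.04% and 27.9%. Of all genes with pSer2 in both lists, 95.2% had a ratio as low or lower. ABCF1 had a body pSer2 level of 6.49 in WT and 10.0 in KO, and its body RPB1 level was 5.49 and 10.0. Its body pSer2 regions were shorter in KO, 8 over 5905 bp in WT and 4 over 4522 bp in KO, but with regions of all classes included the coverage of the gene was 44.5% and 45.5%. ABCF2 and ABCF3 differed little, with 1.498 and 1.572 kb of pSer2 in the gene of ABCF2 and 0.317 and 0.316 kb in that of ABCF3. ABCA7 also had a higher assigned level in KO, 3.41 and 5.77, but 0 of its 4 regions overlapped ABCA7, and within the gene coverage was 2.24% and 1.36%.

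Over the whole annotated genes, with regions counted whichever gene they were assigned to, 24 of the 45 members carried pSer2 in WT, 22 in KO and 21 in both. Coverage was shorter in KO in 18 of those 21 (85.7%), compared with 71.7% of all genes, and the median log2 ratio was -0.44 for the members and -0.28 for 9485 genes. At least 1.5 times shorter were 7 members (33.3%, and 34.0% of all genes). ABCE1, ABCF1 and ABCF2 were the 3 members with longer coverage, with KO/WT ratios of 1.74, 1.02 and 1.05. ABCB6 had pSer2 over 71.7% of its gene in WT and 70.7% in KO, although all regions assigned to it were classed as promoter.

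**Figure D5:**
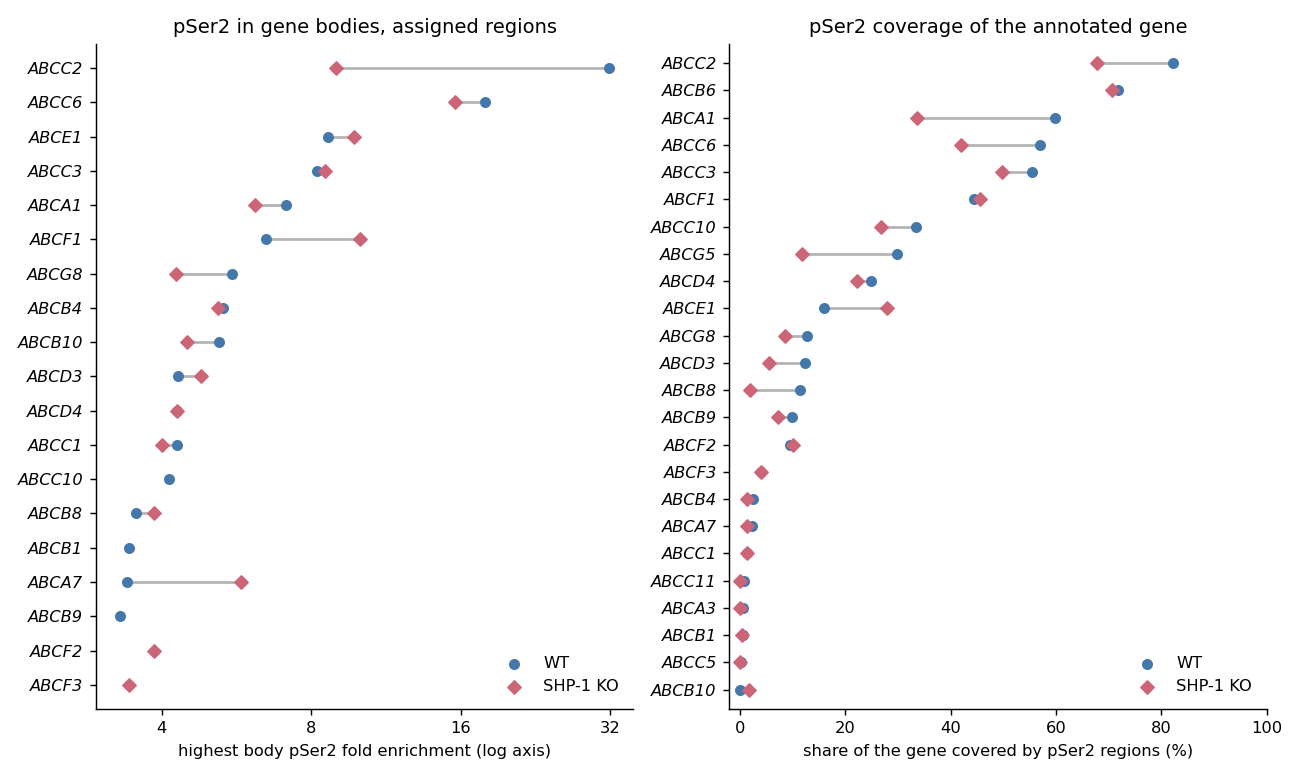
Left, highest fold enrichment (log axis) of the pSer2 regions assigned to the bodies of members, and right, share of the annotated gene covered by pSer2 regions of any class (%), in WT (circles) and SHP-1 KO (diamonds). ABCC2 stands out on the left (31.8 and 8.96), and ABCA1 has the widest gap on the right (59.8% and 33.7%).

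Strong promoter RPB1 did not come with body pSer2 in every member. In WT, 17 of the 29 members with promoter RPB1 also had body pSer2 (58.6%, and 59.2% of all genes), and in KO 16 of 28 (57.1%, and 53.4%). ABCA5 and ABCC5, with promoter levels of 51.4 and 32.9 in WT, had no body pSer2 region. Across the 17 members with both, Spearman's rho between the levels was 0.03 in WT, and across 16 members 0.24 in KO, compared with 0.09 and 0.08 over all genes. These are descriptions across genes that share 1 library per antibody.

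Body RPB1 regions were also fewer in KO, with 123 in 19 members in WT and 71 in 14 members in KO, a ratio of 0.577. Over all genes there were 18592 in 6431 genes in WT and 16399 in 5834 genes in KO, a ratio of 0.882. ABCC2 and ABCC6 together held 65 of the members' regions in WT and 33 in KO. Of the 20 members with body RPB1, 6 had it in WT only (30.0%, against 23% of 7581 genes) and 1 in KO only (5.00%, against 15.2%). For the 13 members with both values, the median log2 KO/WT ratio of the level was -0.44, compared with -0.09 over 4684 genes. The promoter class of pSer2 had a median of 0.04 over 17 members (all genes -0.06).

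Nuclear receptors and other factors known to regulate ABC genes in liver were examined as a list of 12. Promoter RPB1 was present at 11 in both cell types and lower in KO at 10 (90.9%, against 84.8% of all genes), with a median log2 ratio of -0.41, and 4 were at least 1.5 times lower (36.4%, against 38.2% of all genes). RXRA, the shared partner of the LXR, FXR, PXR and CAR receptors, had 45.8 in WT and 16.8 in KO, and its body pSer2 was 13.97 and 8.32. NR1H3 (LXR alpha), which drives ABCA1, had 29.7 and 24.2, NR1H4 (FXR), which drives ABCB11, 17.1 and 16.8, and NR1I3 (CAR) was the 1 higher in KO, at 8.01 and 11.6. Of 8 partners in bile and lipid transport, 3 had promoter RPB1 in WT and 2 in KO, while the bile acid and organic anion importers SLC10A1, SLCO1B1 and SLCO1B3 had none. SLC51A, at 7.19, had it in WT only, as 7.64% of all genes with promoter RPB1 did. Body pSer2 was found in 3 of the 8 in WT and 4 in KO. Among these were SLC10A1, with 4.94 and 2.71 over 3021 and 297 bp, and SLC51A in KO only, with 5.97. Of the family members whose symbols lack the pattern, TAP2, a peptide transporter of antigen presentation, had 21.0 and 12.99, and TAP1 and CFTR had no promoter region.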

How the data were processed

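ChIP-seq of RPB1 and of pSer2 RPB1 was made once in WT and once in SHP-1 KO cells of the HepG2 line. The 2 input libraries were not analysed here. Per the labels and the methods of the study, the authors used Trimmomatic for trimming, BWA for alignment to hg38 and MACS2 for calling narrow peaks, each library being set against its own cells' input. Tool versions are not given in the sources used here. The values that the authors deposited per region are a ratio, the summit's fold enrichment relative to input, and the −log10 of its p-value and q-value. They annotated each region with a genomic feature and the nearest gene. A further deposited table of the authors' own RPB1 comparison of KO and WT holds p-values, numbers of windows up and down and a direction per region, and was not used.

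Groups were taken from the sample titles. For each gene, class and library, the highest fold enrichment, the number of regions and their summed length were taken. Promoter regions lie within 1 kb of a transcript start in the authors' annotation, and body regions are exons, introns and untranslated regions beyond it. Regions in 1 list only, and levels or lengths that differed at least 1.5 times, were counted over the members and over all genes. Own-start levels and gene coverage came from GENCODE release 44 on hg38 with an overlap of at least 1 bp, the start within 1 kb. Both counted regions whichever gene the authors had assigned them to. Promoter sequences came from RefSeq (GRCh38.p14), and motifs were searched on both strands.

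Depth is unknown, since no counts were used, and 1 library per condition allows no test, error or interval. Values were given for the 10 members with the highest WT promoter RPB1, the 5 with the largest ratio in each direction for promoter RPB1 and body pSer2, members with promoter RPB1 in 1 list only and the bile transporters. The other members were named after their values were seen, and some members counted in the totals are not reported here by name. The members and lists were chosen with earlier results of these data known. Alternatives were a stricter −log10 q-value, distinct intervals, other classes and gene assignments, added family members, means, centred ratios and leaving out chromosome arm 1p. The summaries were tested on simulated data. Python 3.11.15, pandas 2.3.3, NumPy 2.4.6 and Matplotlib 3.10.9 were used.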

Additional observations from a re-analysis of the deposited data

How the results depend on the processing

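No difference here has a replicate, so the counts and medians may reflect the libraries, the clone or the depth, which were not tested apart. Of 92 recomputed values, 73 kept their direction and size (counts within 1.5 times, medians within 0.1 on the log2 scale), 14 moved and 5 reversed. The median log2 KO/WT of promoter RPB1 (-0.41) became 0.055 when centred on the median of all genes and 0.060 when centred on that of the chromosome, and -0.52 at any GENCODE transcript start, an alternative chosen after seeing the data. That of the body pSer2 level (-0.03) became 0.043 and 0.0046 when centred likewise, 0.022 with means over regions, -0.20 with downstream regions counted and -0.16 with regions overlapping the GENCODE gene. That of the covered length (-0.42) became -0.10 and -0.18 when centred and -0.78 at a −log10 q-value of at least 5. At that q-value, body pSer2 regions numbered 153 in WT and 130 in KO (278 and 254 as reported), 2 members had promoter RPB1 in KO only (0 as reported) and 1 had body pSer2 in KO only (2 as reported). With overlap of the GENCODE gene, promoter RPB1 regions numbered 32 in WT and 33 in KO (67 and 61 as reported), 0 members had promoter RPB1 in WT only (1 as reported) and 1 had body pSer2 in KO only. Distinct intervals and promoters within 1 kb of the start gave the values as reported by construction. Those values are counted among the 73 but could not have differed.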
